A study of Mus musculus with 36 samples.

Results

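The expression of 10 genes of fibroblast growth factor (FGF) signaling was followed in mouse tibia. They are the receptor genes *Fgfr1*, *Fgfr2* and *Fgfr3*, the feedback inhibitors *Dusp6*, *Spry1*, *Spry2*, *Spry4* and *Spred1*, and the ETS transcription factor genes *Etv4* and *Etv5*. They were taken by symbol from the 56246 genes of the expression table. Bone was collected at 6 months of age from 12 wild-type mice (WT) and from 2 groups of 12 transgenic mice, *LMNA* G608G/G608G (*LMNA* G/G), with 6 males and 6 females in each group. The transgene is a bacterial artificial chromosome with the human *LMNA* gene carrying the progeria mutation G608G and, next to it, human *RAB25*, on the C57BL/6J background. At postnatal day 14, one group of *LMNA* G/G mice received saline by retro-orbital injection and the other an adenine base editor (ABE), an enzyme that changes A to G in DNA without cutting both strands, carried in parts by a pair of AAV9 vectors. WT mice were not treated and carry mouse numbers of their own series, so in every comparison with WT the effects of transgene, of injection and of a difference between these series cannot be told apart.

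FGF ligands bind receptor tyrosine kinases and, through the RAS-ERK cascade, activate the kinase ERK. ERK signaling raises the transcription of its own inhibitors, among them the phosphatase DUSP6 and the Sprouty and SPRED proteins, and of *Etv4* and *Etv5*, which is why these genes are widely used as a transcriptional readout of the pathway. In the skeleton, FGFR1 and FGFR2 act in cells of the osteoblast lineage, and FGFR3 restrains the growth of cartilage.

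Of the 10 genes, 7 had at least 1 promoter sequence in the RefSeq table used here (build GRCm38.p6), with 9 start sites in all. The 250 bases before each start were searched on both strands for CCGGAA, a core that ETS factors bind, for TGACTCA, bound by AP-1, and for TGACGTCA, the cyclic AMP response element. No window of these genes held any of them. Of the 32851 promoters of the table, 12.03%, 4.46% and 1.55% did. With such shares, 9 windows are too few to set these genes apart. The bases before the start of 3 feedback inhibitors whose transcripts were higher in *LMNA* G/G tibiae are given here, 5′ to 3′. They show the searched window and hold no capitals because none of the searched motifs matched. GGAA by itself was not marked.
Dusp6, chr10:99262981-99263230, plus strand: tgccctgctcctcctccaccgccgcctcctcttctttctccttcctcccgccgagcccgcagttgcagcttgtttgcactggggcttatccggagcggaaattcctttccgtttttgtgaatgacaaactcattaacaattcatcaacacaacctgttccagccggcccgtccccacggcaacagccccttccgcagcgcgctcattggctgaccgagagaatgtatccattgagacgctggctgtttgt
Spry2, chr14:105896820-105897069, minus strand: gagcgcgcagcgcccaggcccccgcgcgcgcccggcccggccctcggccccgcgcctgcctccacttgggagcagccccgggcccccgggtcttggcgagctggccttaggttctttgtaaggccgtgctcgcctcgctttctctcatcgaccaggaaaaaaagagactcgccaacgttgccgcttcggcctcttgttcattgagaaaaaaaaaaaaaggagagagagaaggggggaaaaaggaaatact
Spred1, chr2:117120821-117121070, plus strand: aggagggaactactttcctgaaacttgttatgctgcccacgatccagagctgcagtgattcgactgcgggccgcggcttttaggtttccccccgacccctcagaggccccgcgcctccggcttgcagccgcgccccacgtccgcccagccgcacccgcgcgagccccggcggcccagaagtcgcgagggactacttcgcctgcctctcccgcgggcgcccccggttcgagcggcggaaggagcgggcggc

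The libraries held from 48064068 to 116206662 reads on genes, with a median of 78234452. The deposited values are TPM (transcripts per 1000000), a level per length of transcript that can be compared between genes. Each library was rescaled by its median ratio to the geometric mean of each gene ("scaled TPM"), by factors from 0.216 to 1.57, and the lowest factor, that of ABE replicate 1, stood apart from the next at 0.609. The libraries were bone with other tissue in it. The summed scaled TPM of 4 osteocyte markers (*Dmp1*, *Mepe*, *Phex* and *Sost*) ranged from 9.86 to 48.5 in WT, from 169 to 478 in saline-treated and from 172 to 344 in ABE-treated mice, so WT did not overlap the other groups. The sum of 9 chondrocyte markers had medians of 116, 15.8 and 22.6, and that of 10 skeletal muscle markers 926, 1929 and 5773. Fewer cells of a type and less RNA per cell cannot be told apart in such samples.

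*Fgfr1* was the most abundant of the 10 genes in every group, and *Etv4* the least abundant. In WT the means of the others ran from 3.33 scaled TPM for *Dusp6*, 3.06 for *Spry1* and 2.85 for *Fgfr2*, neighbors that lay within their SDs of 0.575, 0.748 and 0.84, down to 0.621 for *Spry4*. Of the 10 genes, 9 reached the mean of 0.5 TPM that a test required.

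Of 9 genes tested, 7 were higher and none lower in tibiae of saline-treated *LMNA* G/G mice than in those of WT mice (limma, adjusted p under 0.05), where 25.7% of all 16123 genes tested were higher and 27.0% lower. The median log2 fold change of the 9 genes was 0.45 and that of all genes 0.00. In ABE-treated mice 8 of 9 genes were higher than in WT and none lower, where 34.7% of all genes were higher and 35.8% lower. Their median log2 fold change was 0.62, against -0.02 for all genes. Both comparisons use the same WT libraries. Rescaling bears on these counts: with the TPM as deposited, the median of all genes lay at -0.13 and -0.42, 21.9% and 13.5% of calls were higher in place of 48.8% and 49.2%, and the genes called were 4 of 9 in saline-treated and 3 of 9 in ABE-treated mice, all higher. Of all 16123 genes tested, 6.44% and 9.12% were then higher, and 23.0% and 58.7% lower.

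**Figure D1:**
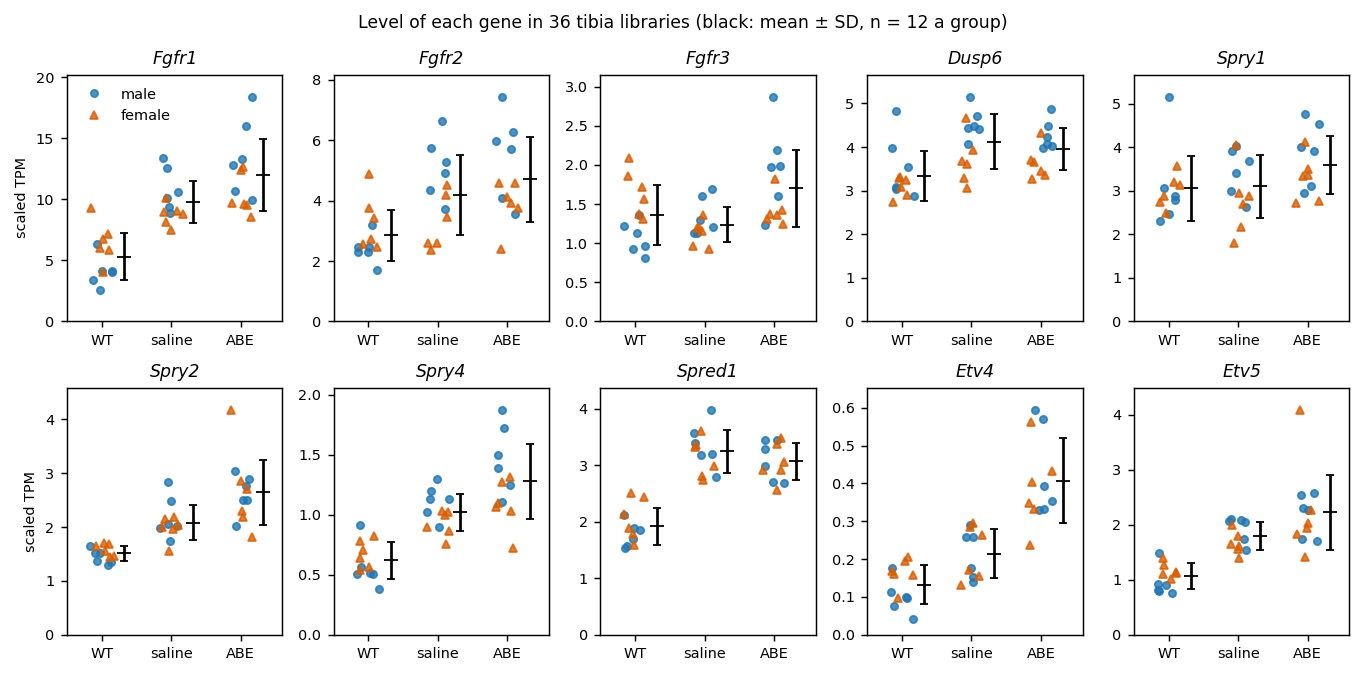
Scaled TPM of each of the 10 genes in 36 tibia libraries, 12 a group, with 1 point a library (circles are males and triangles females) and the mean ± SD in black. Every *Spred1* value of both *LMNA* G/G groups lies above the highest WT value of 2.50, while the *Fgfr3* and *Spry1* values of the 3 groups overlap.

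*Fgfr1* (ENSMUSG00000031565.18, chromosome 8 from 25513654 to 25575718) encodes the main FGF receptor of mature osteoblasts and osteocytes. Its level ran from 2.54 through a median of 5.003 to 9.26 scaled TPM in WT, from 7.52 through 9.21 to 13.3 in saline-treated mice, and from 8.54 through 11.5 to 18.4 in ABE-treated mice. There were 6 saline-treated and 11 ABE-treated libraries above the highest WT library, so the groups overlapped at their edges. The log2 fold change from WT was 0.88 ± 0.15 (SE) in saline-treated mice (1.84-fold, limma adjusted p = 7.4e-06) and 1.14 ± 0.15 in ABE-treated mice (2.20-fold, adjusted p = 5.5e-08). It stayed higher, and called, with TPM as deposited, at 0.72 and 0.60.

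*Fgfr2* (ENSMUSG00000030849.18, chromosome 7 from 130162451 to 133123350) encodes the receptor of earlier osteoblast-lineage cells. The span of its gene model takes in 36 other genes on the same strand, and whether their reads enter its value was not tested. Levels ran from 1.72 through 2.52 to 4.86 scaled TPM in WT, from 2.35 through 4.27 to 6.64 in saline-treated and from 2.39 through 4.36 to 7.43 in ABE-treated mice. The groups overlapped widely, with 4 libraries of each *LMNA* G/G group above WT. *Fgfr2* was higher than WT by 0.47 ± 0.15 on the log2 scale in saline-treated (adjusted p = 0.0094) and by 0.62 ± 0.15 in ABE-treated mice (adjusted p = 0.00044), and neither difference was called with TPM as deposited (0.32 and 0.15, adjusted p = 0.24 and 0.52).

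*Fgfr3* (ENSMUSG00000054252.18, chromosome 5 from 33721674 to 33737068) encodes the receptor best known from growth plate cartilage. It ran from 0.81 through 1.33 to 2.08 scaled TPM in WT, from 0.92 through 1.20 to 1.69 in saline-treated and from 1.24 through 1.51 to 2.87 in ABE-treated mice. No saline-treated library lay above the WT range. Its log2 fold change from WT was -0.08 ± 0.11 in saline-treated mice (adjusted p = 0.56). In ABE-treated mice *Fgfr3* was higher at 0.24 ± 0.11 (adjusted p = 0.049), a call that held in 14 of 36 fits that left out 1 library (it was lost without any 1 of 8 WT, 8 saline-treated or 6 ABE-treated libraries), with adjusted p from 0.016 to 0.11, and that turned to -0.15 (adjusted p = 0.41) with TPM as deposited.

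*Spred1* (ENSMUSG00000027351.14, chromosome 2 from 117121374 to 117182279), whose protein brings neurofibromin to RAS and so dampens the cascade, separated the groups best. WT libraries ran from 1.54 through 1.87 to 2.50 scaled TPM, saline-treated from 2.73 through 3.25 to 3.97 and ABE-treated from 2.56 through 3.02 to 3.48. All 24 *LMNA* G/G libraries thus lay above all WT libraries. *Spred1* was the 1 gene of the 9 with no overlap between saline-treated and WT mice, as were 2.69% of all genes, in the higher direction. The log2 fold change was 0.64 ± 0.065 in saline-treated (1.55-fold, adjusted p = 1.2e-09) and 0.57 ± 0.065 in ABE-treated mice (1.48-fold, adjusted p = 6.2e-09). The deposited TPM gave 0.50 (adjusted p = 0.0078) and 0.11 (adjusted p = 0.49).

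*Spry2* (ENSMUSG00000022114.5, chromosome 14 from 105891947 to 105896819) and *Spry4* (ENSMUSG00000024427.7, chromosome 18 from 38586247 to 38601415) encode Sprouty inhibitors of receptor tyrosine kinase signaling. *Spry2* ran from 1.29 through 1.52 to 1.71 scaled TPM in WT, from 1.55 through 2.03 to 2.85 in saline-treated and from 1.82 through 2.61 to 4.17 in ABE-treated mice. The 4.17 was that of ABE replicate 1, the library with the lowest scaling factor, whose deposited TPM was 0.902. The next ABE-treated library stood at 3.04. The WT range of *Spry2* was exceeded by 11 saline-treated and all 12 ABE-treated libraries. With *Spred1*, it made 2 of 9 genes that did not overlap between ABE-treated and WT mice, as did 3.41% of all genes. Its log2 fold change from WT was 0.35 ± 0.079 in saline-treated (adjusted p = 4.0e-04) and 0.62 ± 0.079 in ABE-treated mice (adjusted p = 4.3e-08), and neither passed with TPM as deposited (0.22 and 0.17, adjusted p = 0.14 and 0.19). *Spry4* ran from 0.38 through 0.56 to 0.92 scaled TPM in WT, from 0.76 through 1.02 to 1.30 in saline-treated and from 0.72 through 1.26 to 1.87 in ABE-treated mice. The highest WT library was exceeded by 8 saline-treated and 11 ABE-treated libraries. The log2 fold changes of *Spry4* from WT were 0.45 ± 0.081 (adjusted p = 2.5e-05) and 0.66 ± 0.081 (adjusted p = 2.4e-08). Both stayed called with TPM as deposited, at 0.36 and 0.33.

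*Dusp6* (ENSMUSG00000019960.8, chromosome 10 from 99263231 to 99267489) encodes the cytoplasmic phosphatase that takes the activating phosphates off ERK. It ran from 2.74 through 3.16 to 4.82 scaled TPM in WT, from 3.06 through 4.24 to 5.15 in saline-treated and from 3.27 through 3.999 to 4.87 in ABE-treated mice. Only 1 library of each *LMNA* G/G group exceeded the WT range. *Dusp6* was higher than WT by 0.27 ± 0.062 on the log2 scale in saline-treated (adjusted p = 4.1e-04) and by 0.22 ± 0.062 in ABE-treated mice (adjusted p = 0.0018), the smallest called differences in saline-treated mice and in ABE-treated mice. The deposited TPM gave 0.12 and -0.27 (adjusted p = 0.57 and 0.10). *Spry1* (ENSMUSG00000037211.12, chromosome 3 from 37639947 to 37644598) had medians of 2.88, 2.98 and 3.44 scaled TPM, with ranges of 2.30 to 5.16, 1.81 to 4.05 and 2.72 to 4.76, and no *LMNA* G/G library above the WT range. Its log2 fold change from WT was 0.01 in saline-treated (95% interval -0.20 to 0.23, adjusted p = 0.93) and 0.21 in ABE-treated mice (-0.01 to 0.42, adjusted p = 0.076). Without WT replicate 6 or 10 or ABE replicate 10 the latter passed, at 0.24, 0.26 and 0.24 (adjusted p = 0.048, 0.017 and 0.046).

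*Etv5* (ENSMUSG00000013089.15, chromosome 16 from 22381309 to 22439719) ran from 0.76 through 1.06 to 1.49 scaled TPM in WT, from 1.40 through 1.77 to 2.10 in saline-treated and from 1.42 through 2.14 to 4.08 in ABE-treated mice. The 4.08 was that of ABE replicate 1, the library with the lowest scaling factor, whose deposited TPM was 0.883. The next ABE-treated library stood at 2.57. In each *LMNA* G/G group 11 libraries exceeded the highest WT library. The log2 fold change from WT was 0.57 ± 0.099 in saline-treated (adjusted p = 1.5e-05) and 0.78 ± 0.099 in ABE-treated mice (adjusted p = 4.0e-08), and it stayed called at 0.45 and 0.36 with TPM as deposited. *Etv4* (ENSMUSG00000017724.14, chromosome 11 from 101769742 to 101785371), with a mean of 0.243 TPM, fell under the minimum and was tested only in a fit without it. Its level ran from 0.043 through 0.13 to 0.20 scaled TPM in WT, from 0.13 through 0.22 to 0.29 in saline-treated and from 0.24 through 0.37 to 0.59 in ABE-treated mice, on 41 to 421 reads a library. All 12 ABE-treated libraries exceeded WT, and 11 exceeded every saline-treated library. The share of all genes that separate in this way was not counted without the minimum. Among 43628 genes without the minimum, *Etv4* was higher than WT in saline-treated (log2 fold change 0.18, adjusted p = 0.021, where 13.0% of genes were higher) and in ABE-treated mice (0.52, adjusted p = 1.3e-08, 21.6%). The 0.5 added before the logarithm holds these values down. On recovered reads (limma-voom, a fit added after the data were seen) they were 0.75 and 1.69, and the ratios of mean scaled TPM were 1.62 and 3.08.

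**Figure D2:**
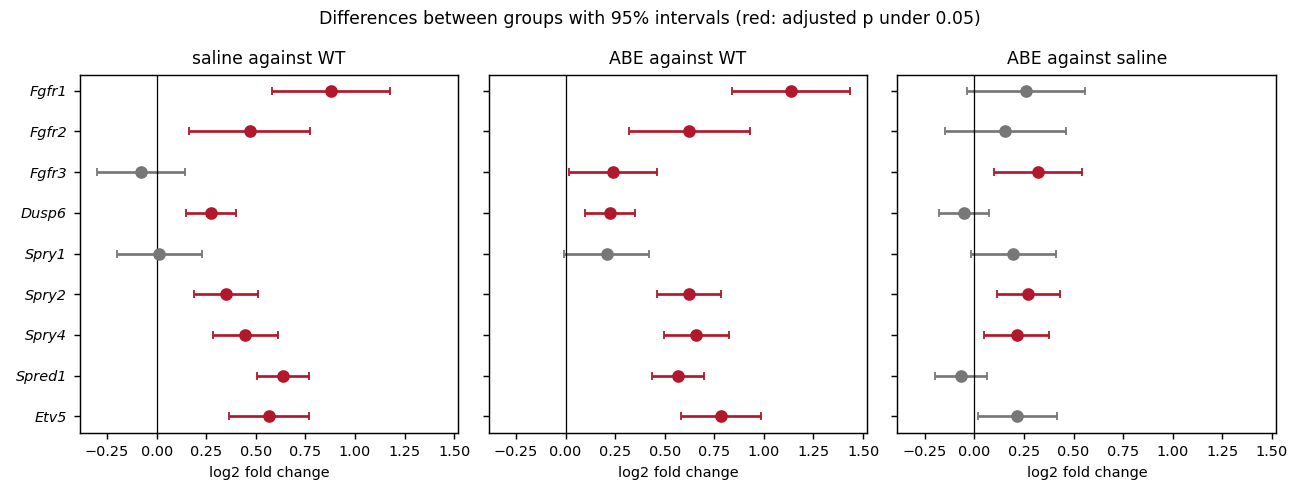
Log2 fold change of the 9 genes tested (x axis) in saline-treated against WT, ABE-treated against WT and ABE-treated against saline-treated mice, with 95% intervals from limma and calls in red. The intervals of *Spred1* reach from 0.50 to 0.77 and from 0.44 to 0.70 against WT, and from -0.20 to 0.06 between the *LMNA* G/G groups.

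ABE-treated and saline-treated *LMNA* G/G mice were then compared with each other. The control was saline without vector, so the effects of the vectors, of the editor and of the edit cannot be told apart. *Fgfr3*, *Spry2* and *Spry4* were higher in ABE-treated mice, so 3 of 9 genes were higher and none lower, where 24.8% of all genes were higher and 23.7% lower. This count turned with the scaling, since the deposited TPM gave 0 of 9 genes as higher and 2 as lower, where 3.29% of all genes were higher and 40.8% lower. No gene of the 9 was without overlap, as were 0.0310% of all genes, in the higher direction. The log2 fold change was 0.32 ± 0.11 for *Fgfr3* (adjusted p = 0.016), 0.27 ± 0.079 for *Spry2* (adjusted p = 0.0059) and 0.21 ± 0.081 for *Spry4* (adjusted p = 0.030), and with TPM as deposited it was 0.06, -0.05 and -0.03. The *Spry4* call held in 32 of 36 fits that left out 1 library and was lost without saline replicate 4 or 10 or ABE replicate 8 or 12 (adjusted p from 0.052 to 0.064). Without the minimum *Etv4* was higher too, at 0.34 (adjusted p = 3.7e-04, where 13.4% of genes were higher), or 0.94 on recovered reads.
The other genes did not pass. *Fgfr1* differed by 0.26 (95% interval -0.04 to 0.56, adjusted p = 0.14), *Etv5* by 0.22 (0.02 to 0.42, adjusted p = 0.068, or 0.023, 0.050 and 0.046 without ABE replicate 3, 9 or 10), *Spry1* by 0.20 (-0.02 to 0.41) and *Fgfr2* by 0.15 (-0.15 to 0.46). *Dusp6* and *Spred1* had the narrowest intervals, -0.18 to 0.07 and -0.20 to 0.06. With TPM as deposited *Dusp6* and *Spred1* were lower in ABE-treated mice, at -0.39 each (adjusted p = 0.033 and 0.028).

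Other cell types moved with the groups, and their levels were put into the fit as a further term. With the mean level of the skeletal muscle markers, 22.4%, 15.8% and 2.04% of all genes were higher in the 3 comparisons. Of the 9 genes, 7 were still higher in saline-treated than in WT mice, 5 in ABE-treated mice (*Fgfr1*, *Spry2*, *Spry4*, *Spred1* and *Etv5*) and 0 in ABE-treated against saline-treated mice, where *Fgfr3*, *Spry2* and *Spry4* stood at 0.16, 0.08 and 0.06 (adjusted p = 0.42, 0.49 and 0.67). Terms for muscle, neutrophil, B cell and erythroid markers together gave the same counts of 7, 5 and 0. Of all genes 9.99%, 7.13% and 2.59% were then higher, and 12.9%, 11.9% and 2.30% lower.
A term for the 4 osteocyte markers, added after the data were seen, turned most differences from WT and left 2 and 1 of 9 genes called, all lower, where 8.61% and 7.36% of all genes were lower. *Fgfr1* then stood at -1.16 (adjusted p = 0.0028) in saline-treated and at -0.72 (adjusted p = 0.035) in ABE-treated mice, and *Fgfr3* at -1.15 (adjusted p = 0.0056) and -0.73 (adjusted p = 0.052, which does not pass). The feedback inhibitors and *Etv5* lost their calls, with *Spred1* at -0.14 in both comparisons, *Spry4* at -0.43 and -0.13, *Spry2* at 0.10 and 0.40 and *Etv5* at -0.15 and 0.13. No library of WT shares its osteocyte level with a library of the other groups, so this fit extends the slope within groups over a range that holds no library, and the osteocyte signal and the transgene cannot be told apart. The saline-treated and ABE-treated ranges of the osteocyte sum do overlap, and between these groups the term gave 5 of 9 genes as higher, where 27.9% of all genes were: *Fgfr1* at 0.44, *Fgfr3* at 0.42, *Spry2* and *Spry4* at 0.29 and *Etv5* at 0.28.

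**Figure D3:**
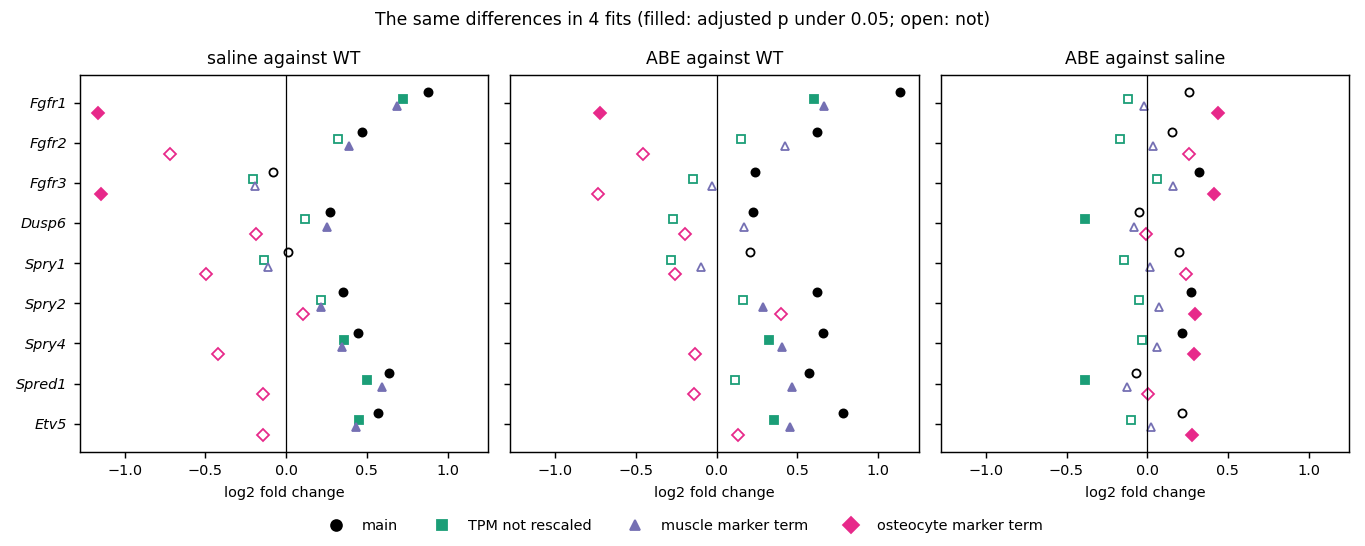
Log2 fold change of the 9 genes (x axis) in the fit reported, with TPM not rescaled, with a skeletal muscle marker term and with an osteocyte marker term, for the 3 comparisons; filled symbols passed an adjusted p of 0.05. With the osteocyte term *Fgfr1* moves from 0.88 to -1.16 in saline-treated against WT mice, and with the muscle term no gene passes in ABE-treated against saline-treated mice.

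The difference between males and females in the change from WT was largest for the receptors. In WT, *Fgfr1* averaged 4.11 ± 1.25 scaled TPM (SD, n = 6) in males and 6.52 ± 1.73 in females, *Fgfr2* 2.41 ± 0.47 and 3.30 ± 0.92, and *Fgfr3* 1.07 ± 0.20 and 1.65 ± 0.29. In saline-treated mice the order was the opposite, with *Fgfr1* at 10.8 ± 1.79 in males and 8.77 ± 0.88 in females, *Fgfr2* at 5.10 ± 1.03 and 3.29 ± 0.91, and *Fgfr3* at 1.34 ± 0.25 and 1.13 ± 0.17. Males also had the higher means in ABE-treated mice, 13.5 against 10.4 for *Fgfr1* and 1.97 against 1.42 for *Fgfr3*.
The log2 fold change of *Fgfr1* from WT in saline-treated mice was 1.32 in males and 0.43 in females, that of *Fgfr2* 0.94 and -0.0042, and that of *Fgfr3* 0.23 and -0.39, the last lower in females (adjusted p = 0.012). The difference between the sexes, male minus female, was 0.89 ± 0.23 for *Fgfr1*, 0.95 ± 0.25 for *Fgfr2* and 0.63 ± 0.17 for *Fgfr3*, each with an adjusted p of 0.057, so 0 of 9 genes passed, where 0.478% of all genes did. In ABE-treated mice the sex difference passed for 2 of 9 genes, where 2.95% of all genes did. It was 0.96 ± 0.23 for *Fgfr1* (1.62 in males and 0.66 in females, adjusted p = 0.025) and 0.80 ± 0.17 for *Fgfr3* (0.64 and -0.16, adjusted p = 0.014), while *Spry4* at 0.47 (adjusted p = 0.059) and *Fgfr2* at 0.81 (adjusted p = 0.063) missed the threshold. The 2 calls were not steady, since a fit of WT and ABE-treated mice only gave 0, the osteocyte term gave 0, and leaving out 1 library gave from 1 to 4. The share of all genes called is not given for these fits. For ABE-treated against saline-treated mice the sex difference passed for 0 of 9 genes by limma, 0 of which had an unadjusted p under 0.05, and for 0.0248% of all genes.
For the feedback inhibitors and *Etv5* the sex difference ran from 0.11 to 0.39 in saline-treated and from 0.05 to 0.47 in ABE-treated against WT mice, and none passed. *Spred1* was higher than WT in saline-treated males (0.76) and females (0.52), and in ABE-treated males (0.66) and females (0.48). *Spry2* was higher in ABE-treated males (0.67) and females (0.57), and *Etv5* by 0.90 and 0.67. WT males and females also differed in other cell signals, with median chondrocyte sums of 89.4 and 200.8 scaled TPM, osteocyte sums of 17.6 and 39.7 and osteoblast sums of 1178 and 1673, whose ranges overlap. The neutrophil sums did not overlap, at 1425 to 2282 in WT males and 746 to 1368 in WT females. The part of these signals in the sex differences was not tested.

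**Figure D4:**
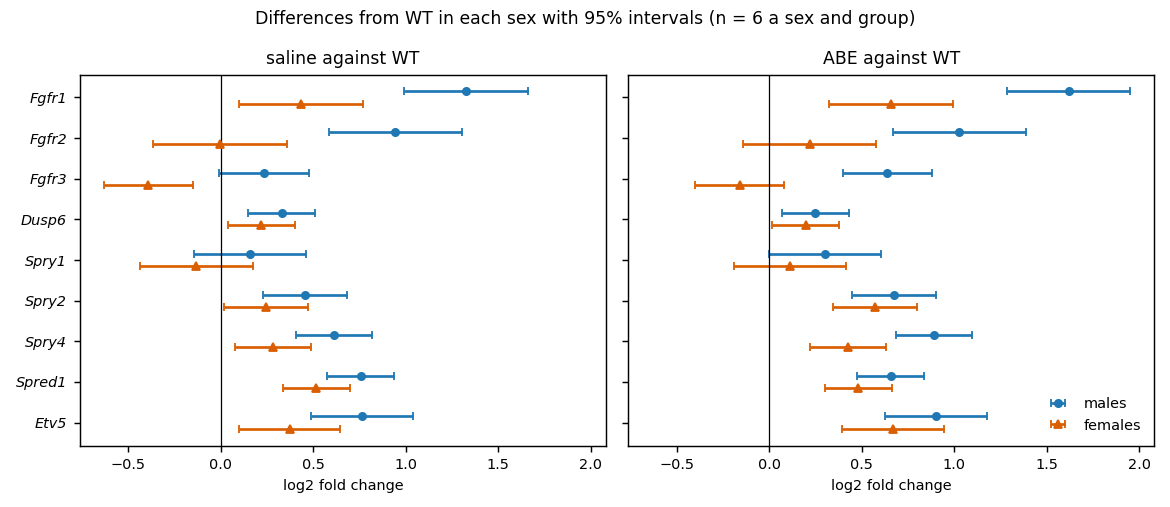
Log2 fold change from WT of the 9 genes (x axis) in males (circles) and females (triangles), in saline-treated and ABE-treated mice, with 95% intervals from limma and n = 6 a sex and group. For *Fgfr2* in saline-treated mice the male value of 0.94 and the female value of -0.0042 have intervals that do not meet.

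Most of the 10 genes varied together within groups. For each gene the mean of its group and sex was taken off and the deviations of 36 libraries were correlated, as a description only, since the libraries share tissue makeup and scaling. For pairs of all genes no r was computed. Of 45 pairs of the 10 genes, 42 had a Pearson r above 0 and the median r was 0.49. The highest were *Spry1* with *Spry4* (0.79), *Fgfr1* with *Spry4* (0.77), and *Spry2* with *Etv4* and with *Etv5* (0.73 each). Without ABE replicate 1, *Spry2* stood at 0.68 with *Etv4* and at 0.56 with *Etv5*. *Fgfr1* and *Fgfr3* reached 0.72 and *Fgfr2* and *Fgfr3* 0.70, while *Fgfr2* stood at -0.10 with *Etv5* and -0.08 with *Spry2*, values that were 0.22 and 0.19 without ABE replicate 1.
Against marker lists, *Fgfr1* and *Spred1* had their highest r with the osteocyte markers (0.80 and 0.72). *Spry4* followed the endothelial markers (0.84), and so did *Spry1* (0.69), *Etv5* (0.66) and *Fgfr3* (0.65). *Fgfr2* followed the osteoblast markers (0.60). *Spry2* and *Etv4* had an r of 0.73 each with skeletal muscle markers, of -0.86 and -0.71 with erythroid markers and of -0.83 and -0.74 with neutrophil markers.

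**Figure D5:**
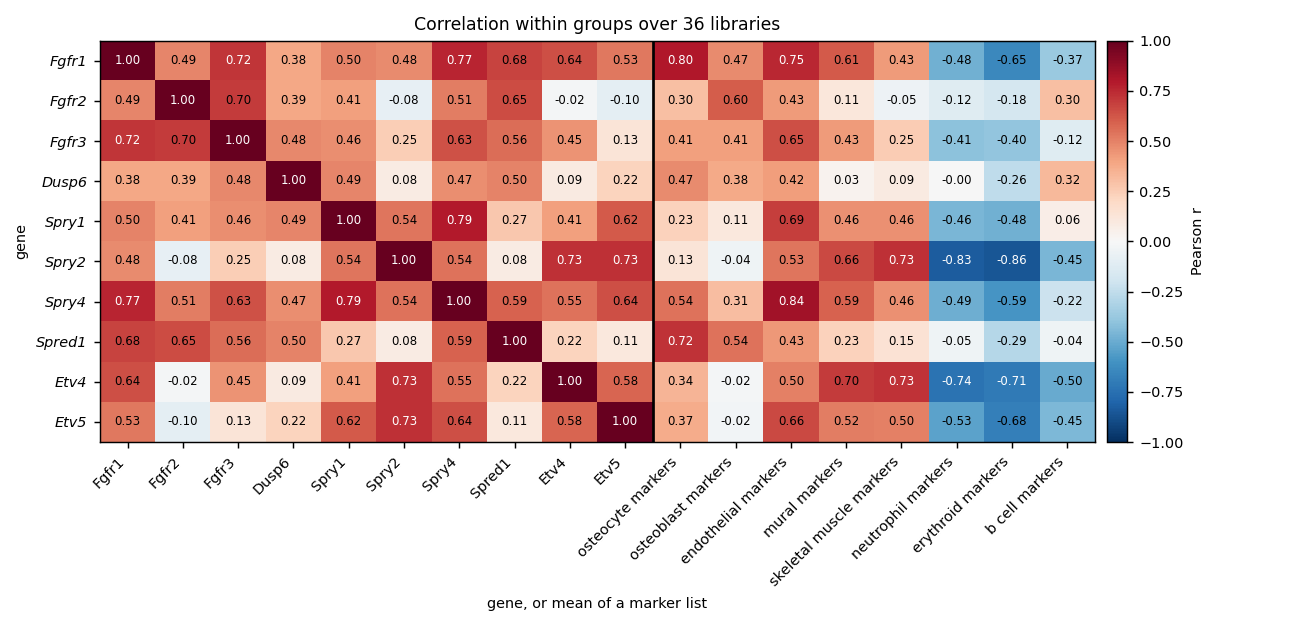
Pearson r over 36 libraries between deviations from the group and sex means, for the 10 genes against each other (left of the line) and against the mean level of 8 marker lists (right). Among the receptors and *Spred1* r ran from 0.49 to 0.72, and among *Spry2*, *Etv4* and *Etv5* from 0.58 to 0.73. These sets were not separate. *Spry4* had an r of 0.51 to 0.77 with the receptors and *Spred1*, and *Fgfr1* one of 0.64 with *Etv4*. Without ABE replicate 1, *Etv4* with *Etv5* stood at 0.48 and *Spry2* with *Etv5* at 0.56.

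Among 4048 genes whose mean reached 5 TPM, those most like each member in these deviations were *Ltbp3* (r = 0.95) and *Ptgis* (0.91) for *Fgfr1*, *Cdh11* (0.90) and *Adamts2* (0.89) for *Fgfr2*, and *Scarf2* (0.88) and *Zfp36l1* (0.83) for *Fgfr3*. For the inhibitors they were *Tgfbr2* (0.73) and *Txndc5* (0.69) for *Dusp6*, *Rhob* (0.78) and *Mtss2* (0.75) for *Spry1*, *Eri3* (0.94) and *Mef2d* (0.92) for *Spry2*, *Ctnna1* (0.86) and *Cdh5* (0.84) for *Spry4*, and *Cd200* (0.84) and *Fat1* (0.82) for *Spred1*. For the ETS factors they were *Dmwd* (0.87) and *Tns1* (0.86) for *Etv4* and *Mgrn1* (0.83) and *Abcc9* (0.82) for *Etv5*. Without the 2 libraries farthest from the median of the member, the *Dusp6* values fell to 0.55 and 0.56 and the first *Etv5* value to 0.67, and the other 17 stayed at 0.68 or above.

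Further genes of the pathway were described by list. Of all genes tested, 25.7% were higher and 27.0% lower in saline-treated against WT mice. The shares were 34.7% and 35.8% in ABE-treated against WT, and 24.8% and 23.7% in ABE-treated against saline-treated mice. With TPM as deposited they were 6.44% and 23.0%, 9.12% and 58.7%, and 3.29% and 40.8%. Of 22 FGF ligands 3 reached the minimum, and all 3 were higher in saline-treated than in WT mice. *Fgf1*, a ligand of all FGF receptors, went from 0.755 ± 0.282 to 3.12 ± 0.766 scaled TPM (SD, n = 12; log2 fold change 1.53, adjusted p = 3.2e-11), *Fgf13*, an intracellular family member that is not secreted, was higher by 0.62, and *Fgf7*, a ligand of a splice form of FGFR2, by 0.46. The 3 were higher in ABE-treated mice too, and *Fgf13* was higher in ABE-treated than in saline-treated mice by 0.55. With TPM as deposited 2, 2 and 0 of the 3 were called in the 3 comparisons, all higher. Of the coreceptors and heparan sulfate proteoglycans 5 of 9 were higher in saline-treated mice and 0 lower (8 and 0 in ABE-treated against WT, 3 and 2 in ABE-treated against saline-treated), and with TPM as deposited 2 and 0, 2 and 1, and 0 and 3. They included the glypican *Gpc4* (1.13, adjusted p = 9.4e-11), *Gpc1* (0.52) and the syndecans *Sdc3* (1.06) and *Sdc1* (0.40). Between the *LMNA* G/G groups *Hspg2*, which encodes perlecan, was higher in ABE-treated mice by 0.59 and *Gpc1* by 0.52, and with TPM as deposited they differed by 0.20 and 0.12.
Of 19 genes of the RAS-ERK cascade, 4 were higher and 3 lower in saline-treated than in WT mice, 10 and 4 in ABE-treated against WT and 10 and 4 in ABE-treated against saline-treated mice. With TPM as deposited these became 0 and 2, 0 and 11, and 0 and 8. Of all genes 23.0%, 58.7% and 40.8% were then lower. The called differences in saline-treated mice were small, and included the phosphatase *Ptpn11* (-0.28), the adaptor *Gab1* (0.24) and the exchange factor *Sos2* (0.18). The scaffold gene *Ksr1* was higher in ABE-treated than in saline-treated mice by 0.48, and stood at 0.12 with TPM as deposited.
Of 9 other feedback inhibitors 4 were higher and 1 lower in saline-treated than in WT mice (6 and 2 in ABE-treated against WT, 3 and 3 between the *LMNA* G/G groups), and with TPM as deposited 1 and 1, 2 and 5, and 1 and 5. *Errfi1*, an inhibitor of EGF receptors, was higher by 0.86, *Dusp7* by 0.41 and *Dusp4* by 0.33, while the ubiquitin ligase gene *Cbl* was lower at -0.36. *Lrig1* and *Dusp7* were higher in ABE-treated than in saline-treated mice by 0.85 and 0.43, and with TPM as deposited by 0.53 and 0.05. Of 7 other ERK target genes 5 were higher in saline-treated than in WT mice and 0 lower: *Fos* by 1.69 (adjusted p = 4.6e-11), *Egr1* by 0.92, *Phlda1* by 0.66 and *Ccnd1*, the cyclin D1 gene, by 0.52 were the 4 with the largest differences. In ABE-treated mice 6 were higher than WT and 1, *Myc*, lower at -0.37. *Myc* was also lower than in saline-treated mice, at -0.36, and no other of the 7 passed in that comparison. With TPM as deposited the counts of the 7, higher and lower, were 3 and 0, 3 and 1, and 0 and 1. With the muscle marker term none of the pathway genes named here for ABE-treated against saline-treated mice passed (adjusted p from 0.088 to 0.27 for *Fgf13*, *Hspg2*, *Gpc1*, *Lrig1*, *Dusp7* and *Myc*, and 0.38 for *Ksr1*), and *Gab1* and *Sos2* lost their calls in saline-treated against WT mice (adjusted p = 0.14 and 0.061).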

How the data were processed

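Total RNA of tibiae without epiphyses and marrow was sequenced as stranded poly(A) libraries. Per the study's methods and the labels, the authors aligned paired reads to GRCm38 with STAR (2.73a in the submitters' notes) and counted GENCODE genes. The deposited values are TPM, 1 column per library, each summing to 1000000; how they were made from the counts is not given in the sources used here. No library's column was left out.

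TPM were divided by each library's median ratio size factor (14219 genes), and log2(scaled TPM + 0.5) of the 16123 genes whose mean reached 0.5 TPM was fitted with limma 3.58.1 (R 4.3.3), with sex as a covariate, all 36 libraries in 1 fit and Benjamini-Hochberg adjustment over all genes at 0.05. Fold changes are on this scale, which understates those of low genes. The study used a count model; here TPM called for a log-scale model. Sex differences came from group by sex means. TPM times (length - 218), divided by a constant for each library, gave whole reads for 100% of values (tolerance 0.01), which limma-voom used as an alternative. The fit was also run on simulated data with few genes changed and independent noise. That does not test the scaling where many genes differ. The alternatives were other scalings, pseudocounts of 0.1 and 1, filters, samples and marker terms. Coordinates come from GENCODE M21 (GRCm38), matched by versioned gene ID.

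Named genes were the 10 members, up to 4 genes per pathway list with the largest called difference in saline-treated against WT mice, up to 2 in ABE-treated against saline-treated mice, and the 2 genes most like each member. Some genes that this rule names are not reported here. *Myc* is also named for its call in ABE-treated against WT mice. The members and lists were chosen with earlier results of these data known. The labels give no litters or culture batches, and p-values measure the spread between mice. The samples carry no shared numbers, so none were paired.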

Additional observations from a re-analysis of the deposited data

Results flagged for a closer look

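The difference from WT in ABE-treated mice was unlike in males and females for 2 genes, by a test of the difference itself (limma, group by sex term, adjusted p under 0.05). For *Fgfr1* the log2 fold change in males minus that in females was 0.96 (adjusted p = 0.025), with 1.62 in males and 0.66 in females, n = 6 a sex and group. For *Fgfr3* it was 0.80 (adjusted p = 0.014), with 0.64 in males and -0.16 in females. WT females had more of both transcripts than WT males, and the order was the opposite in ABE-treated and in saline-treated mice. In saline-treated against WT mice the sex difference was 0.89 for *Fgfr1* and 0.63 for *Fgfr3* (limma adjusted p = 0.057 each). Between ABE-treated and saline-treated mice it was 0.07 and 0.17, with SEs of 0.23 and 0.17, and neither passed. In ABE-treated against WT mice, 1 of 9 genes showed a called sex difference without WT replicate 6 or 11 or ABE replicate 6, 8 or 12. It was 4 of 9 without WT replicate 5 or 10 or ABE replicate 5, 7 or 11. A fit of WT and ABE-treated mice only gave 0. In saline-treated against WT mice the count moved from 0 to 1 without saline replicate 2 or ABE replicate 7, to 3 without WT replicate 3 or 5, saline replicate 3 or 10 or ABE replicate 1, 2 or 12, and to 4 without WT replicate 10. The share of all genes called is not given for these fits, so the counts show only how steady the calls were. No check for a sample far from the others was run on these groups of 12. ABE replicate 1 had a scaling factor of 0.216, apart from the next lowest of 0.609.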

How the results depend on the processing

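In saline-treated against WT, ABE-treated against WT and ABE-treated against saline-treated mice, 7, 8 and 3 of 9 genes were called. With TPM as deposited the counts were 4 and 3, all higher, and 2, both lower; *Fgfr3* and *Dusp6* turned to -0.15 and -0.27 in ABE-treated against WT and *Spry2* and *Spry4* to -0.052 and -0.035 in ABE-treated against saline-treated mice. A minimum of 5 TPM, which leaves 1 member to test, gave 1, 1 and 0. Females only gave 4 in saline-treated against WT and 0 in ABE-treated against saline-treated mice, with *Fgfr2* at -0.0034 in the former and *Fgfr3* at -0.15 in ABE-treated against WT, and males only gave 1 in ABE-treated against saline-treated mice. The muscle term gave 5 and 0 in the last 2 comparisons, with *Fgfr3* at -0.031 in ABE-treated against WT, and 4 marker terms also gave 5 and 0. The osteocyte term, added after the data were seen, gave 2, 1 and 5; in saline-treated against WT it put *Fgfr1* at -1.16, *Fgfr2* at -0.72, *Dusp6* at -0.19, *Spry4* at -0.43, *Spred1* at -0.14 and *Etv5* at -0.15, and in ABE-treated against WT *Fgfr1* at -0.72, *Fgfr2* at -0.46, *Fgfr3* at -0.73, *Dusp6* at -0.20, *Spry4* at -0.13 and *Spred1* at -0.14. The cause was not tested. The share of all genes called is not given for the 5 TPM minimum or for 1 sex alone.

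Leaving out each library in turn gave 7 to 7, 7 to 9 and 2 to 4 genes, and 0 to 4, 1 to 4 and 0 to 0 for the sex differences of the 3 comparisons, which were 0, 2 and 0. The sex difference of saline-treated against WT was called for 1 gene under quantile normalization, 2 with a pseudocount of 0.1, 3 in a fit of those 2 groups, 3 with limma-voom and 2 with 4 marker terms. That of ABE-treated against WT was called for 1 gene at a minimum of 5 TPM, 0 in a fit of those 2 groups, 4 with 4 marker terms and 0 with the osteocyte term. The share of all genes called is not given for these fits, so the counts show only how steady the calls were.

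Over the 15 alternatives that leave out no single library, 111 of 127 fold changes in saline-treated against WT, 101 of 127 in ABE-treated against WT and 106 of 127 in ABE-treated against saline-treated mice kept their side of the threshold. These include 5, 3 and 10 changes of sign where neither value was called. No paired analysis was possible because the labels give the groups no shared replicate numbers. *Etv4* rests on 41 to 421 reads a library, and the interval of each uncalled gene, not its p, limits the size of a difference.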
